A study of Mus musculus with 24 samples.

Results

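The 9 genes described here are Pou5f1, Sox2, Sall4, Utf1, Dppa3, Dppa5a, Lin28a, Lin28b and Trim71, which mark pluripotent cells in general or belong to the Lin28 pathway. They were taken by name from a table of read counts for 35591 genes, each name matched 1 row, and all 9 passed the filter on low counts in every comparison. The 24 RNA-seq libraries came from 6 male mouse embryonic stem cell (mESC) lines, each derived from its own blastocyst and sampled on day 0 and then on days 2, 2.5 and 3 on the way to neuromesodermal progenitors (NMPs), which give rise to spinal cord and trunk mesoderm. Of the lines, 3 were Smchd1[fl/+] (wt) and 3 were Smchd1[del/+] (het). Mothers were Castaneus and carried intact Smchd1. Fathers were C57BL/6 Smchd1 del/fl and carried the MMTV-Cre transgene, in which a mammary tumour virus promoter drives Cre, leaving het lines without a working paternal copy and wt lines with a floxed one. The labels do not say which lines inherited the transgene. Day 0 cells were labelled as in DME medium with leukaemia inhibitory factor (LIF), a serum medium. Before that the lines were kept in a LIF medium with PD0325901 and the Wnt activator CHIR99021, and moved to serum medium in steps. Day 2 cells had been in N2B27 medium with basic FGF. CHIR99021 was added to this medium on day 2, so the day 2.5 and day 3 cells of both genotypes were taken after that addition. The question of the series was whether heterozygosity for Smchd1, an epigenetic silencing factor, alters gene expression along this path.

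Pou5f1 (OCT4) and Sox2 encode transcription factors that bind DNA as partners and hold embryonic stem cells in the pluripotent state. Sall4 encodes a zinc finger factor of the same network, Utf1 a chromatin-associated protein of undifferentiated cells, Dppa3 (Stella) a protein that protects DNA methylation in the zygote and marks naive and germ cells, and Dppa5a a small RNA-binding protein of early embryonic cells. LIN28A and LIN28B are RNA-binding proteins that block the maturation of the let-7 microRNAs, which otherwise promote differentiation, and let-7 in turn targets the Lin28 messages. Trim71 (Lin-41) encodes an RNA-binding TRIM protein and is itself a classical let-7 target.

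The letters behind these known links are printed here. All 8 let-7 microRNAs of the RefSeq table (build GRCm38.p6) had the same seed, bases 2 to 8, and both miR-125 forms shared another. For 3 of them the mature sequence is given with the seed in capitals, because the sites counted next are its complement.
mmu-let-7a-5p, chr13:48538239-48538260, minus strand: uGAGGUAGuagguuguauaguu
mmu-let-7g-5p, chr9:106178846-106178867, plus strand: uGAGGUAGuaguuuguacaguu
mmu-miR-125a-5p, chr17:17830817-17830840, plus strand: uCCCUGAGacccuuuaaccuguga

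The 7 letters CTACCTC, searched on the sense strand of the 3′ UTR of the GENCODE vM21 transcript of each gene, were found 4 times in Lin28b (4445 bases of 3′ UTR), 4 times in Trim71 (5512 bases), 2 times in Lin28a (2775 bases) and 1 time in Sall4 (1697 bases). The other 5 genes had none in 3′ UTRs of 122 to 1086 bases. The letters occurred in 9.02% of the 3′ UTRs of 21021 genes, and in 24.2%, 29.5%, 14.4% and 11.2% of those within 20% of the length of Lin28b, Trim71, Lin28a and Sall4. The miR-125 letters, CTCAGGG, occurred 1 time each in Lin28a, Lin28b and Trim71, in none of the other 6, in 13.1% of all 3′ UTRs, and in 24.6%, 32.0% and 37.3% of those within 20% of the length of Lin28a, Lin28b and Trim71. A match is a description of the sequence, and microRNAs were not measured in these poly(A) libraries. The match nearest the stop codon of each Lin28 pathway gene and the single match of Sall4 are shown with the letters in capitals, all read on the minus strand of GRCm38.
Lin28a, base 909 of the 3′ UTR, chr4:134005182-134005211: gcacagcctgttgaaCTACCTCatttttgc
Lin28b, base 36, chr10:45381015-45381044: acccgggcgggaagtCTACCTCatgcaagc
Trim71, base 166, chr9:114512465-114512494: aacattgcctaagtcCTACCTCagcttaaa
Sall4, base 1082, chr2:168748933-168748962: agggctttaatttatCTACCTCaattatct

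**Figure D1:**
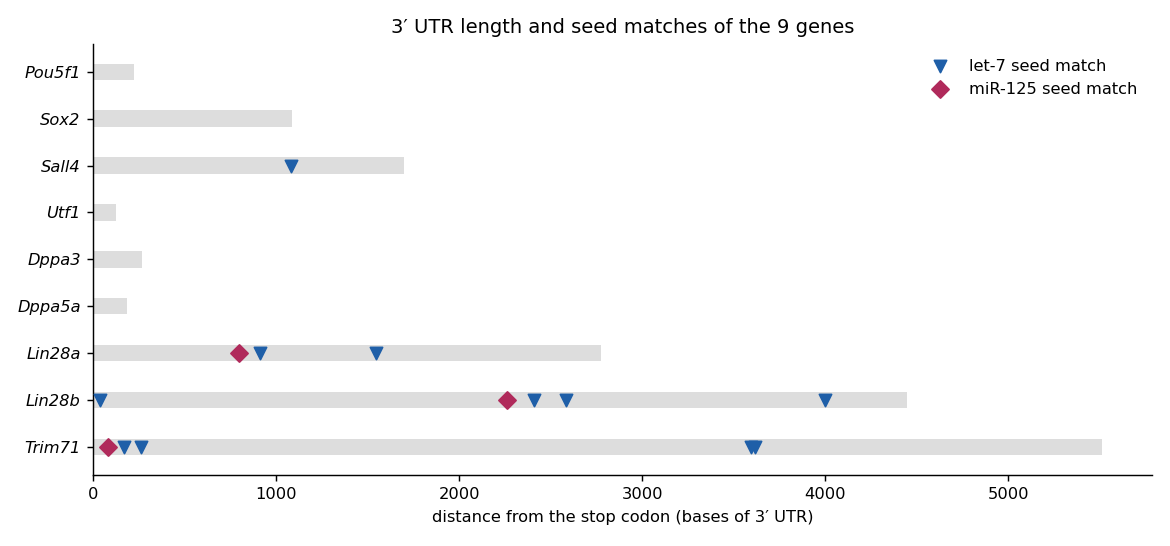
The grey bars give the 3′ UTR length of each of the 9 genes, in bases from the stop codon, and the symbols mark the letters complementary to the let-7 seed (triangles) and the miR-125 seed (diamonds). The matches lie in the long 3′ UTRs of Lin28a, Lin28b and Trim71, with 1 further let-7 match in Sall4.

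Library totals ran from 7102655 counts (wt day 2.5, line 2) to 20818018 (wt day 3, line 1). Smchd1 was lower in het than in wt lines on every day without overlap, at 89.7 to 102 against 131 to 149 CPM (the counts-per-million unit, scaled between libraries by TMM factors) on day 0, although gene-level counts check a partial deletion only in part. The naive markers Nanog, Zfp42, Esrrb, Klf4 and Tfcp2l1 summed to 1116 to 1335 CPM on day 0 and to 83.4 to 189 CPM later. The 6 NMP and primitive streak markers, among them T, Cdx2 and Nkx1-2, summed to at most 7.67 CPM on days 0 and 2 and to 359 to 879 CPM on days 2.5 and 3. Of other cell types, 15 endoderm markers summed to 1356 to 3885 CPM on day 0 and 4010 to 15484 CPM later. Lama1, Lamb1, Col4a1, Col4a2 and Sparc made up most of this sum, at wt day 2 means of 2683, 2105, 2661, 1190 and 1499 CPM. Gata4, Gata6 and Sox17 were at 66.4, 43.2 and 15.2 CPM there, and the sum does not give a share of cells. Afp and Ttr, markers of mature endoderm, were below 1 CPM in the mean of every group. The summed ranges over all libraries were 95.1 to 216 CPM for 6 germ cell markers, 1.33 to 14.96 for 6 two-cell-like, 1.35 to 30.1 for 5 neural, 22.8 to 63.0 for 6 trophoblast and 28.1 to 253 for 6 fibroblast markers.

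The 9 genes were well covered, at 84 to 22700 counts in each library. On day 0 they spanned a wide range of levels per length (CPM per kilobase of exon, RPKM). In wt lines Dppa5a was highest at 1863 ± 84.7 RPKM (mean ± SD, n = 3 lines, as throughout), followed by Pou5f1 at 587 ± 51.9. Utf1, Lin28a, Sox2 and Dppa3 came next at 214 ± 93.3, 145 ± 9.95, 116 ± 17.1 and 90.5 ± 18.5, where the ranges of Utf1 and Lin28a overlapped and so did those of Sox2 and Dppa3. Sall4 stood at 57.4 ± 3.69, Trim71 at 34.3 ± 1.99 and Lin28b lowest at 6.50 ± 0.477 RPKM. By day 3 the order had changed. Lin28a was then at the top, at 197 ± 2.57 RPKM in wt and 197 ± 19.7 in het lines, with Dppa5a at 189 ± 14.5 and 160 ± 49.0, ranges that overlapped in both genotypes. Lin28b was last in every group named here, at 10.05 ± 0.690 RPKM in wt and 11.02 ± 2.51 in het lines on day 3, when its range overlapped that of Dppa3 in het lines. The last place depends on the length used: with the longest transcript in place of all exons, Lin28b on day 3 was at 16.9 RPKM in wt and 18.5 in het lines, above Dppa3 at 13.2 and 12.1.

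**Figure D2:**
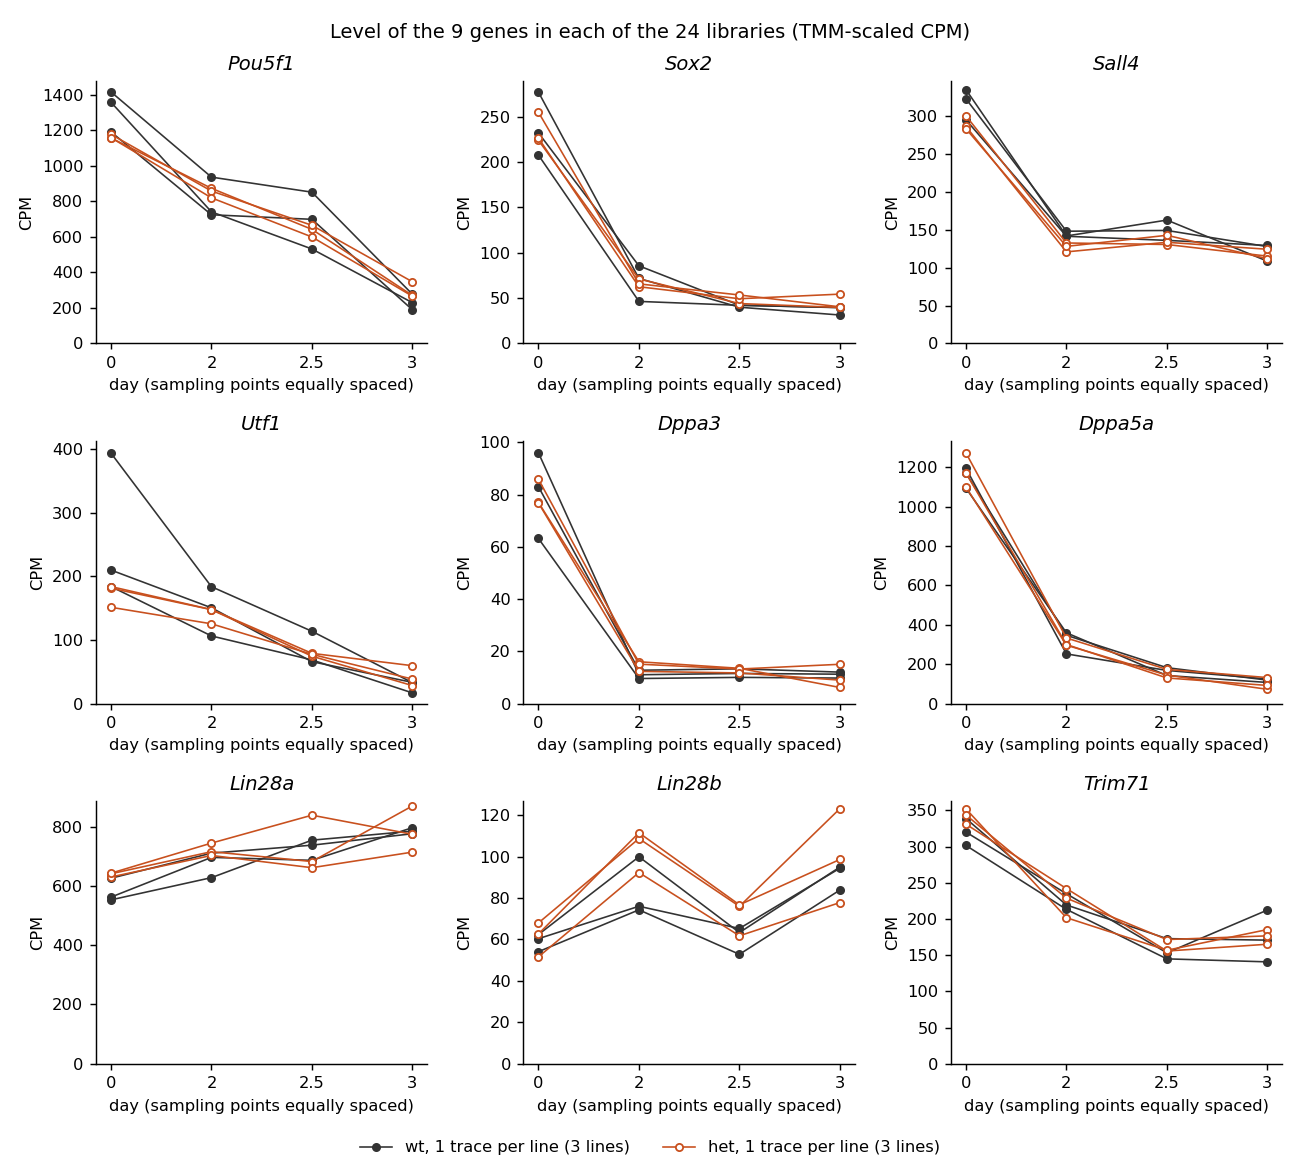
Each panel plots the TMM-scaled CPM of 1 gene (vertical axis from 0) against the 4 sampling days, with 1 trace for each of 3 wt lines (filled, dark) and 3 het lines (open, orange). Sox2, Sall4, Dppa3 and Dppa5a dropped mainly before day 2, Pou5f1 and Utf1 kept falling to day 3, Lin28a rose slightly, and Lin28b rose, dipped at day 2.5 and rose again.

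Between day 0 and day 3, 7 of the 9 genes fell and 2 rose in each genotype by the edgeR quasi-likelihood test (Benjamini-Hochberg adjusted p under 0.05 over all genes, the meaning of "called", "rose" and "fell" throughout). Over all genes tested, 26.6% were lower and 27% higher in wt lines, and 31.6% lower and 32.7% higher in het lines. The median log2 fold change of the 9 genes was -2.50 in wt and -1.97 in het lines, beside 0.03 and 0.02 over all genes. When library totals replaced TMM factors the median over all genes shifted to 0.12 and 0.14, and no called member changed direction. All 7 falls and both rises went the same way in 3 of 3 lines of each genotype. In bulk RNA, fewer cells that express a gene and less RNA per cell cannot be told apart.

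Pou5f1, at chr17:35506018-35510772 (plus strand), fell slowly and then steeply. In the 3 wt lines it stood at 1415, 1189.9 and 1357 CPM on day 0, at 936, 724 and 740.2 on day 2, at 851, 698 and 531 on day 2.5 and at 277, 189 and 229 on day 3. The day 2 and day 2.5 ranges overlapped, and the day 3 values lay far below both. In het lines it went from 1156, 1176 and 1157 CPM to 873, 857 and 819, then to 642, 665 and 599, and then to 270.1, 347 and 266 CPM. Thus 52.7 ± 11.7% of the day 0 level remained at day 2.5 in wt and 54.6 ± 2.51% in het lines, and 17.5 ± 1.88% and 25.3 ± 3.66% at day 3. On the log2 scale the step from day 2.5 to day 3 was -1.59 ± 0.18 (SE) in wt (adjusted p = 0.000683) and -1.15 ± 0.11 in het lines (adjusted p = 6.9e-05). The earlier steps were smaller, at -0.71 ± 0.11 in wt and -0.44 ± 0.05 in het lines by day 2, and -0.19 ± 0.16 (not called, adjusted p = 0.396) and -0.42 ± 0.07 (called) from day 2 to day 2.5. Exons of Pou5f1 overlap those of Gm19553 on the other strand, the labels leave the strandedness of each library open, and Gm19553 was listed at 17.1 to 20.3% of the Pou5f1 CPM in every library. Exons of Sall4, Lin28a and Trim71 also overlap those of Gm14261, Gm13061 and C130032M10Rik on the other strand. Dppa3 shares some 75-base stretches with the pseudogene Dppa3-ps.

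Sox2, a single-exon gene at chr3:34650405-34652461 (plus strand), dropped earlier. The wt lines held 277, 232 and 208 CPM on day 0, and 71.7, 85.6 and 46.4 CPM on day 2. The het lines held 224, 226 and 255 CPM, and then 71.1, 62.5 and 65.7. No day 2 value came near a day 0 value in either genotype. The fall by day 2 was -1.81 ± 0.18 in wt and -1.81 ± 0.08 in het lines, and a smaller one followed by day 2.5, at -0.70 ± 0.19 (adjusted p = 0.0149) and -0.45 ± 0.11 (adjusted p = 0.00332). From day 2.5 to day 3 the values were -0.18 ± 0.14 and -0.16 ± 0.13, neither called, with 31.4 to 39.7 CPM in wt and 39.8 to 54.4 in het lines on day 3. The day 2.5 call of Sox2 was lost without wt line 1 (adjusted p = 0.0503), without wt line 2 (0.17) and, in het lines, without line 1 (0.108).

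The ratio of Sox2 to Pou5f1, each per length, differed between days. It was 0.198 ± 0.0267 in wt and 0.221 ± 0.0171 in het lines on day 0, and 0.0938 ± 0.0316 and 0.0855 ± 0.00503 on day 2. All 12 libraries of days 2 and 2.5 had lower ratios than all 6 of day 0, from 0.0514 to 0.129 against 0.167 to 0.241. On day 3 the ratio was back at 0.180 ± 0.0526 and 0.166 ± 0.00526, which overlapped the day 0 range in wt and lay below it in het lines. With the longest transcript of each gene the day 0 ratio was 0.12004 in wt and 0.134 in het lines. These ratios were chosen as a description and were not tested.

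Of the other pluripotency genes, Dppa3 and Dppa5a had fallen furthest by day 2. Dppa3 (chr6:122626410-122630272, plus strand) stood at 83.0, 96.0 and 63.2 CPM in wt lines on day 0 and at 12.8, 11.04 and 9.60 CPM on day 2, a log2 change of -2.85 ± 0.18 (adjusted p = 4.76e-08). In het lines it went from 76.8 to 85.9 CPM on day 0 to 12.3 to 16.0 CPM, a change of -2.45 ± 0.12. After day 2 it levelled off. No later step was called in either genotype, with 9.77 to 12.0 CPM in wt and 6.17 to 15.05 CPM in het lines on day 3. Without het line 2 its late step was called (-0.78, adjusted p = 0.0422).

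Dppa5a (chr9:78367052-78368177, minus strand) fell at each of the 3 steps in both genotypes. Its wt values were 1094.5, 1195 and 1171 CPM on day 0, 359.6, 252 and 347 on day 2, 143, 168 and 182 on day 2.5, and 107, 124.99 and 119 on day 3. In wt lines no value of a later day reached those of the day before, and in het lines day 3 (72.5 to 132 CPM) overlapped day 2.5 (130.2 to 174). The steps were -1.84 ± 0.12, -0.95 ± 0.14 and -0.50 ± 0.12 in wt, and -1.91 ± 0.06, -1.06 ± 0.10 and -0.63 ± 0.18 in het lines, leaving 10.2 ± 0.328% and 8.28 ± 1.92% of the day 0 level. The last step lost its call without wt line 2 (adjusted p = 0.144), wt line 3 (0.133), the smallest library (0.0631), het line 1 (0.0854) or het line 3 (0.106), and in het lines by the DESeq2 Wald test (0.0875). Of the 75-base stretches of Dppa5a exons, 80.6% were unique in the annotated transcripts, and the others recur in copies such as Dppa5b and Dppa5c, so some reads could have been divided.

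Sall4 (chr2:168748332-168767943, minus strand) fell at the first step and then nearly held its level. Its wt levels were 295 to 335 CPM on day 0, 141 to 148 on day 2, 136 to 163 on day 2.5 and 109 to 129 on day 3. The het levels were 283 to 300.35, 121 to 133, 131 to 143 and 112 to 124 CPM. By day 2 it had fallen by 1.14 on the log2 scale in wt lines (SE 0.10) and by 1.17 in het lines (SE 0.06), to 45.4 ± 2.82% and 43.9 ± 1.52% of day 0. The late step from day 2.5 to day 3 was -0.30 ± 0.11 in wt (adjusted p = 0.0854) and -0.25 ± 0.08 in het lines (adjusted p = 0.035). With line as a block, so that each line was compared with itself, the wt step was called too (adjusted p = 0.0409). The het call was not kept on leaving out line 1, 2 or 3 (adjusted p = 0.0983, 0.0705 and 0.335), DESeq2 size factors (0.0587), library totals (0.0538), no filter on low counts (0.107), the DESeq2 Wald test (0.0595) or 1 fit of all 24 libraries (0.0728), and the wt step was called in that last fit (0.0104).

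Utf1 (chr7:139943789-139945112, plus strand) followed Pou5f1, with its steepest wt fall after day 2.5. The wt lines had 394, 184 and 210.1 CPM on day 0, 184, 106 and 151 on day 2, 114, 68.7 and 65.9 on day 2.5 and 32.9, 16.8 and 33.4 on day 3. Line 1 stood far above the other wt lines on day 0. The het lines were tighter early on, at 182, 184 and 152 CPM on day 0 and 74.6, 79.0 and 77.5 on day 2.5, and wider on day 3, at 28.3, 59.6 and 38.5. The 3 steps were -0.83 ± 0.25, -0.81 ± 0.22 and -1.59 ± 0.27 in wt, and -0.28 ± 0.09, -0.87 ± 0.09 and -0.90 ± 0.20 in het lines, all called. Leaving out wt line 3 ended the first and second of the wt calls (adjusted p = 0.0535 and 0.0996) and wt line 2 the last (0.0713), and the second was also lost without the smallest library (0.071). In het lines the first was lost without line 1 or line 2 (0.072 and 0.0579) and in 1 fit of all 24 libraries (0.382), and the last without line 3 (0.0872). The DESeq2 Wald test did not call the first wt step (adjusted p = 0.108).

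**Figure D3:**
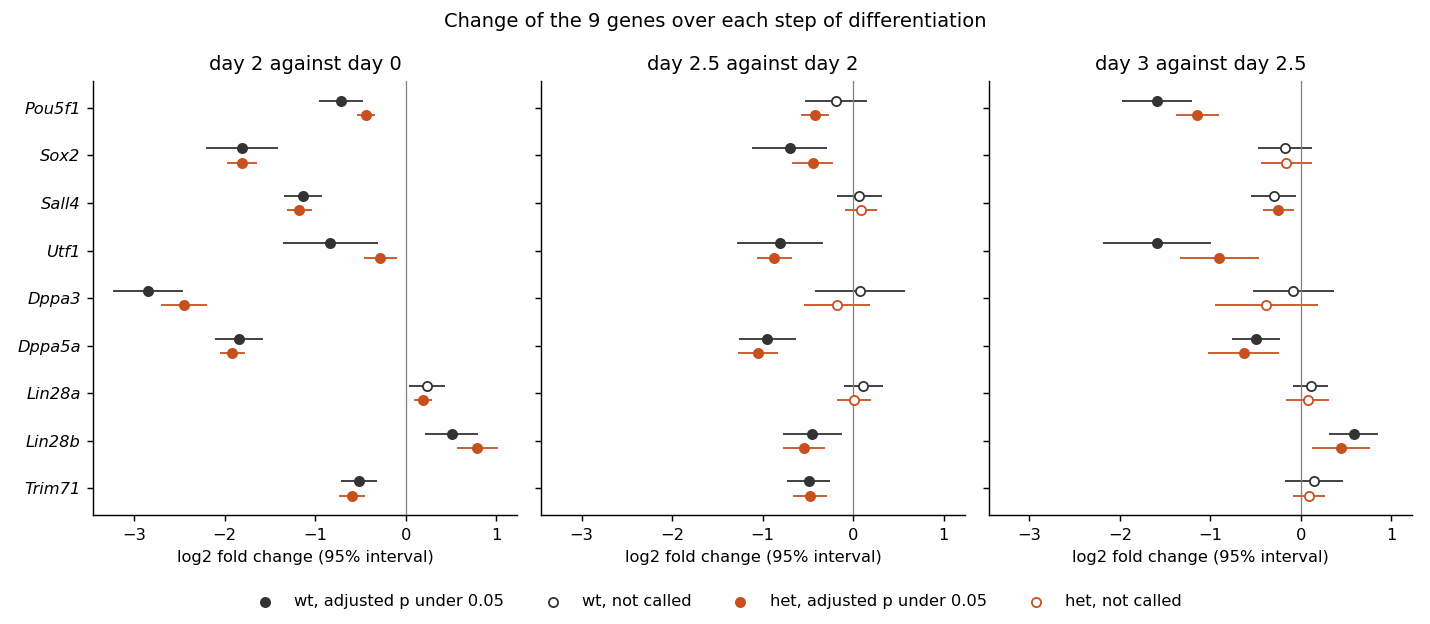
For each of the 9 genes the horizontal axis gives the log2 fold change of 1 step (later minus earlier day) with its unadjusted 95% interval, for wt (dark) and het (orange) lines, and filled points mark an adjusted p under 0.05. Sall4, Dppa3, Sox2 and Dppa5a have their largest change at the first step and Pou5f1 at the last.

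The Lin28 genes did not follow the others. Lin28a (chr4:134003330-134018841, minus strand) was at 553, 626 and 562 CPM in wt lines on day 0 and at 785, 776 and 796 CPM on day 3. In het lines it was at 641, 629.8 and 643 CPM, and then at 869.5, 714 and 774. Every day 3 value lay above every day 0 value of its genotype. The rise was 0.45 ± 0.08 in wt (adjusted p = 0.000511) and 0.32 ± 0.07 in het lines (adjusted p = 0.00128). Its steps were small, with a first step of 0.23 ± 0.09 in wt (not called, adjusted p = 0.0528; called at 0.0496 with line as a block, 0.0214 with library totals, 0.0303 by DESeq2 and 0.0366 in 1 fit of all 24 libraries) and 0.19 ± 0.05 in het lines (called, but 0.0908 in 1 fit of all 24 libraries). Without wt line 3 the rise by day 3 had an adjusted p of 0.0515.

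Lin28b (chr10:45376620-45486395, minus strand) rose, fell and rose again, in that order in each of the 6 lines. The wt lines held 60.4, 62.4 and 54.1 CPM on day 0, 76.0, 99.9 and 74.3 on day 2, 65.3, 63.3 and 52.8 on day 2.5 and 94.4, 94.98 and 83.9 on day 3. In het lines the values were 68.0, 51.6 and 62.7, then 109, 92.3 and 112, then 76.0, 61.8 and 76.7, and then 123, 77.8 and 98.7 CPM. Within each genotype the ranges of neighbouring days did not overlap at any step. The steps were 0.51 ± 0.14, -0.45 ± 0.15 and 0.58 ± 0.12 in wt, and 0.79 ± 0.11, -0.55 ± 0.11 and 0.44 ± 0.15 in het lines, all called. The dip at day 2.5 lay in the samples taken after CHIR99021 was added, and its call in wt lines was lost without line 2 (adjusted p = 0.239) or line 3 (0.122), and without the smallest library, wt day 2.5 of line 2 (0.0833), and with library totals in place of TMM factors (0.0576). The first wt step was lost without line 2 (0.051) or line 3 (0.0636), and the last without wt line 2 (0.123), wt line 3 (0.0646), het line 1 (0.139) or het line 3 (0.108).

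Trim71 (chr9:114507133-114564369, minus strand), in contrast, declined. It stood at 302, 320.04 and 339 CPM in wt lines on day 0, at 213, 235 and 219 on day 2, at 145, 153 and 173 on day 2.5 and at 141, 212 and 171 on day 3. The het values were 331 to 352, 202 to 242, 156 to 172 and 165 to 185 CPM. Both early steps were called, at -0.52 ± 0.09 and -0.49 ± 0.11 in wt and -0.59 ± 0.07 and -0.48 ± 0.09 in het lines, and the last was not, at 0.15 ± 0.15 and 0.09 ± 0.08. The second wt call was lost without line 2 (adjusted p = 0.0854). So the 3 genes with let-7 seed matches in the Lin28 pathway did not move together: by day 3 Lin28a and Lin28b were higher and Trim71 was lower than on day 0.

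Lin28b was the minor form throughout. Its level per length was 0.0449 ± 0.00296 of that of Lin28a in wt and 0.0420 ± 0.00540 in het lines on day 0. The ratio was 0.0542 ± 0.00751 and 0.0637 ± 0.00499 on day 2, 0.0367 ± 0.00236 and 0.0436 ± 0.00484 on day 2.5, and 0.0512 ± 0.00411 and 0.0556 ± 0.00722 on day 3. With the longest transcript of each gene in place of all exons the wt day 0 ratio was 0.0660, and the ratio was not tested.

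**Figure D4:**
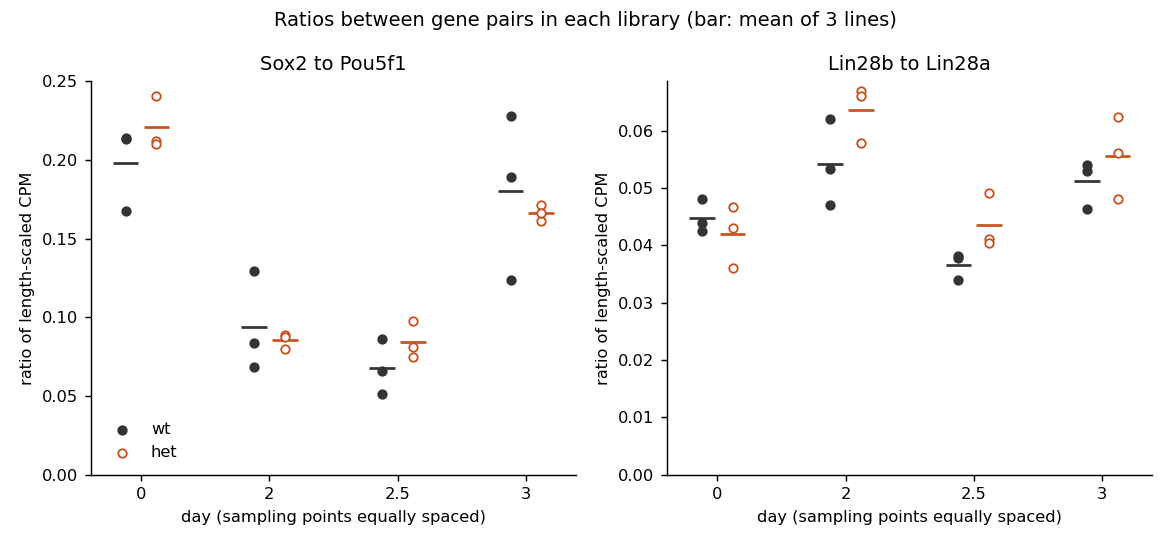
The left panel plots the ratio of Sox2 to Pou5f1 and the right panel that of Lin28b to Lin28a (CPM per length, axis from 0) in each library on each of the 4 days, for wt (filled) and het (open) lines, with bars at the mean of 3 lines. The Sox2 to Pou5f1 ratio is low at days 2 and 2.5, and the Lin28b to Lin28a ratio is lowest in wt lines at day 2.5.

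Counted by step, 1 of the 9 genes rose and 7 fell by day 2 in wt lines, where 22.4% of all genes were higher and 21.9% lower, and 2 rose and 7 fell in het lines, beside 28% and 28.1%. From day 2 to day 2.5, 5 fell in wt (Sox2, Utf1, Dppa5a, Lin28b and Trim71) and 6 in het lines (the same and Pou5f1), and none rose, beside 14.5% lower and 14.6% higher of all genes in wt and 22.9% lower and 21.8% higher in het lines. From day 2.5 to day 3, 3 fell and 1 rose in wt lines, with 10.1% of all genes lower and 8.99% higher, and 4 fell and 1 rose in het lines, with 16% and 13.8%. Without line 2 none of the 4 wt calls at the last step was kept (adjusted p = 0.066 to 0.144; 29 of 15560 genes called), although the log2 changes were close to those with it (Pou5f1 -1.46, Utf1 -1.45, Dppa5a -0.54 and Lin28b 0.58), and without only its small day 2.5 library 3 were called. With line as a block the calls over all genes at this step were 4687, against 2923 without.

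Between genotypes, none of the 9 genes was called on any day. The background was also low, at 0% of genes called on day 0, 0.551% on day 2, 0% on day 2.5 and 0.00638% on day 3. At an unadjusted p under 0.05, 2 of the 9 differed on day 0 (Pou5f1 and Utf1), 1 on day 2 (Lin28b), 0 on day 2.5 and 1 on day 3 (Pou5f1), while 1649 of 15108, 1576 of 15414, 822 of 15588 and 1432 of 15686 genes tested did. With the DESeq2 Wald test also 0 of the 9 were called on each day, and 82, 233, 3 and 116 of all genes.

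The values bounded what a difference could have been. Pou5f1 was lower in all 3 het than in all 3 wt lines on day 0, by -0.21 ± 0.07 (95% interval -0.36 to -0.06, adjusted p = 0.369), and on day 3 its het minus wt value was 0.33 ± 0.14 (0.03 to 0.64, adjusted p = 0.517), with overlapping lines. Utf1 was likewise lower in het lines on day 0, at -0.64 ± 0.22 (-1.13 to -0.16, adjusted p = 0.378), and at 0.60 ± 0.28 on day 3 (-0.03 to 1.22, adjusted p = 0.568). The day 0 difference of Utf1 rested largely on the 394 CPM of wt line 1, and the highest het value (184.09) and the lowest wt value (184.14) nearly met. Its day 3 difference rested largely on the 59.6 CPM of het line 2 and the 16.8 CPM of wt line 2. The other het lines then held 28.3 and 38.5 CPM and the other wt lines 32.9 and 33.4 CPM. Tighter intervals were those of Dppa5a on day 0 (-0.12 to 0.14), Lin28a on day 0 (-0.02 to 0.24) and Trim71 on day 0 (-0.07 to 0.21). The lines of the genotypes also did not overlap for Lin28a on day 0 (het higher, adjusted p = 0.508), Sall4 on day 2 (het lower, 0.501) and Sox2 on days 2.5 and 3 (het higher, 0.907 and 0.626). With Pou5f1 and Utf1 this made 3 of the 9 genes on day 0 and 1 on each later day, while the lines did not overlap for 17% of all genes on day 0, 15.8% on day 2, 11.6% on day 2.5 and 14% on day 3. Lin28b on day 2 was at 0.31 ± 0.13 (0.04 to 0.58, adjusted p = 0.389). Without wt line 2 Pou5f1 was called on day 0 (-0.29, adjusted p = 0.0478), and without the filter on low counts Utf1 was (adjusted p = 3.79e-11, with 369 genes called against 0).

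Marker sums also did not overlap between genotypes for some cell types and days, given here, and overlapped for all others. Of all genes tested, 17% did not overlap on day 0, 15.8% on day 2, 11.6% on day 2.5 and 14% on day 3. The 15 endoderm markers summed to 2315 to 3885 CPM in wt and 1356 to 1954 CPM in het lines on day 0, and to 7500 to 15484 and 4619 to 6387 CPM on day 2, without overlap. On day 2.5 (5151 to 13589 against 5441 to 8119) and day 3 (5215 to 10349 against 4010 to 6599) they overlapped. Among wt lines, line 1 had the lowest endoderm sum and the highest Pou5f1 level on all 4 days (2315 CPM of endoderm markers beside 1415 CPM of Pou5f1 on day 0, 5151 beside 851 on day 2.5). Among het lines the line with the lowest sum had the highest Pou5f1 level on day 2 alone. The lines also did not overlap for fibroblast markers on day 2 (63.5 to 117 CPM in wt and at most 53.4 in het lines, mostly Pdgfra, with means of 81.8 and 36.2 CPM, while each of the other 5 markers was under 10 CPM), epiblast-like markers on day 3 (144 to 188 and 189 to 266) and trophoblast markers on day 3 (22.8 to 25.95 and 27.5 to 33.3). The part of these cells in the values of the 9 genes was not tested.

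**Figure D5:**
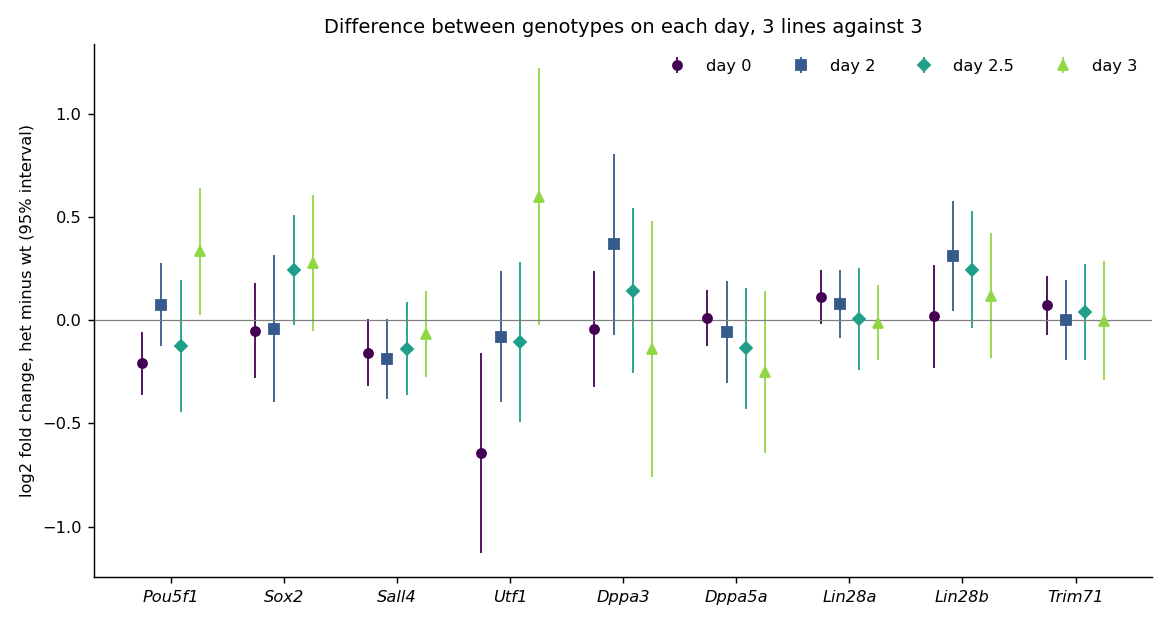
The vertical axis gives the log2 fold change of het minus wt lines, 3 against 3, with unadjusted 95% intervals, for the 9 genes on each of the 4 days. No difference had an adjusted p under 0.05, and Utf1 spans from -0.64 on day 0 to 0.60 on day 3. The day 0 end leans on wt line 1, and the day 3 end on het line 2 and wt line 2.

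Whether a change between days differed between genotypes was tested as an interaction. None of the 9 genes was called for any of the 4 pairs of days (days 2 and 0, 2.5 and 2, 3 and 2.5, 3 and 0), as for all genes, of which 0% were called each time, with 1034, 850, 635 and 1455 at an unadjusted p under 0.05. DESeq2 called 10, 0, 0 and 19 genes, none of them among the 9. The members past an unadjusted p of 0.05 were Pou5f1 for day 2 against day 0 (0.29 ± 0.13, adjusted p = 0.778) and Utf1 and Pou5f1 for day 3 against day 0. For Utf1 the het change from day 0 to day 3 was 1.21 ± 0.40 less negative than the wt change (95% interval 0.36 to 2.06, adjusted p = 0.506), as 24.5 ± 8.44% of its day 0 level remained in het and 11.1 ± 4.15% in wt lines. For Pou5f1 it was 0.52 ± 0.17 less negative (0.17 to 0.88, adjusted p = 0.506). The other 7 genes lay between -0.28 and 0.31 for this pair of days. Utf1 was at 0.57 ± 0.30 for day 2 against day 0 and at 0.71 ± 0.38 for day 3 against day 2.5. Without the filter on low counts both were called (Utf1 adjusted p = 2.42e-13, Pou5f1 0.00503, with 173 genes called in all), and so was Utf1 for day 2 against day 0 (0.0208).

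The wider pluripotency network also fell. All 20 listed genes, which do not include the 9, were lower on day 2 than on day 0 in both genotypes, with a median log2 fold change of -2.11 in wt and -2.39 in het lines, beside -0.83 and -0.59 for the 9, a difference that was not tested. By day 3, 19 of 20 were lower in wt and 20 of 20 in het lines, with medians of -3.28 and -3.23. Over all genes 21.9% and 28.1% were lower on day 2, and 26.6% and 31.6% on day 3. The largest falls in wt lines were those of Nr0b1, an orphan nuclear receptor gene of naive cells, from 101 ± 18.2 to 1.66 ± 0.465 CPM (log2 -5.88 ± 0.22), and of Tcl1, an AKT cofactor, from 17.6 ± 0.816 to 0.603 ± 0.304 CPM (-4.84 ± 0.34). From day 2 to day 2.5, 4 were lower and 1 higher in wt lines, and 6 and 3 of 19 tested in het lines, beside 14.5% lower and 14.6% higher of all genes in wt and 22.9% and 21.8% in het lines.

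Among genes that process or degrade let-7 precursors, changes went both ways. Of 12 listed symbols 10 were in the table, as Zcchc11 and Zcchc6 are older names of Tut4 and Tut7, and 9 were tested, Dgcr8 being listed at 0 counts in every library. By day 3, 4 were higher and 3 lower in wt lines and 4 and 4 in het lines, beside 27% higher and 26.6% lower of all genes in wt and 32.7% and 31.6% in het lines, the shares to read the next lists against too. Tut4, the terminal uridylyl transferase that LIN28A recruits to let-7 precursors, rose by 0.88 ± 0.13 in wt lines, from 78.0 ± 13.1 to 142 ± 12.5 CPM. Dis3l2, the exonuclease that degrades the uridylated precursors, rose by 1.52 ± 0.20, from 10.7 ± 2.76 to 30.6 ± 2.56 CPM. Tarbp2, a Dicer partner, fell by 1.24 on the log2 scale (SE 0.13) and Xpo5, the nuclear exporter of precursors, by 0.35 (SE 0.09). Tut4 was also high on day 2 and lower on day 2.5 (156 ± 13.2 and 90.0 ± 14.3 CPM in wt lines).

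Of 15 genes known as let-7 targets, 8 rose and 5 fell by day 3 in wt lines, and 8 and 6 in het lines, with medians of 0.89 and 0.68 beside 0.03 and 0.02 over all genes. The share lower, 5 of 15 in wt lines, was near the 26.6% of all genes. Ccnd2, encoding cyclin D2, rose by 3.78 ± 0.21 and Hmga2, a chromatin architectural gene, by 2.16 ± 0.17 in wt lines. Mycn and Myc, growth-promoting transcription factor genes, fell by 3.11 (SE 0.17) and 2.82 (SE 0.16). On day 2, 1 of the 15 differed between genotypes, Ccnd2, at 83.8 ± 21.2 CPM in wt and 42.8 ± 2.12 in het lines (log2 -0.98 ± 0.16, adjusted p = 0.0118), beside 0.551% of all genes called. On days 0, 2.5 and 3, 0 of 15 differed, beside 0%, 0% and 0.00638% of all genes. The Ccnd2 call was lost without het line 1 or het line 3, where no gene was called lower. On that day the endoderm markers summed to means of 11254 CPM in wt and 5663 CPM in het lines, and their part in the Ccnd2 difference was not tested.

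In the SOX, POU and SALL families, 9 of 11 listed genes were tested, with Sall1 also in the pluripotency list. By day 3, 2 were higher and 4 lower in wt lines, and 2 and 5 in het lines, where 2 of 9 higher was near the 27% of all genes in wt lines. Sox15 fell by 2.95 (SE 0.27) and Pou3f1, the OCT6 gene of primed epiblast, by 2.81 (SE 0.24) in wt lines. Most of the Pou3f1 difference lay between day 2 (55.3 ± 9.82 CPM) and day 2.5 (5.99 ± 1.09). At this step Pou5f1 was not called in wt lines, although it was lower in all 3 of them. In het lines Pou3f1 went from 53.7 ± 5.64 to 7.08 ± 0.592 CPM, and Pou5f1 was called (-0.42 ± 0.07). Sall2 and Sall3 rose in wt lines, by 0.64 ± 0.20 and 0.85 ± 0.32. In het lines Sall2 rose by 0.46 ± 0.16, and Sall3 was at 0.70 ± 0.41 (adjusted p = 0.148, not called).

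The genes whose pattern was most like each of the 9 were found by Pearson's r of log2(CPM + 1) over the 24 libraries, among 9743 genes with a mean of at least 10 CPM. These libraries share 6 lines, so r is given as a description. Pou5f1 was closest to its overlapping neighbour Gm19553 (r = 0.998), then Snrpn (0.971) and Rfc5 (0.970), and Utf1 was closest to Pou5f1 (0.961). The nearest to Sox2 was Nfatc2ip (0.983), to Sall4 Senp3 (0.990), to Dppa3 Mylpf (0.983) with Zfp42 next (0.981), and to Dppa5a Ooep (0.985), an oocyte gene on the same chromosome, with Dnmt3l next (0.984). Trim71 was nearest to Igf2bp1 (0.981), an RNA-binding protein gene and also 1 of the 15 let-7 target genes. Lin28b was nearest to Rhobtb3 (0.933) and Lin28a to Epb41l5 (0.912). Among the 9 genes themselves, the pairs of Sox2, Sall4, Dppa3 and Dppa5a had r of 0.912 to 0.953, whereas Pou5f1 with those 4 had 0.704 to 0.840, and Lin28b with Lin28a had 0.678.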

How the data were processed

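RNA-seq libraries of 24 samples were prepared from poly(A) RNA. Per the methods and labels, the authors trimmed reads with Trim Galore 0.4.4 and Cutadapt, aligned them with HISAT2 2.0.5 to GRCm38.p6 and quantified genes in SeqMonk. The deposited count table held raw read counts per gene, and 8 columns of group means in it were not used. All per-sample columns matched a title, with 0 left over. A deposited table of log2 RPKM for 34 factors listed 5 of the 9 genes, and own length-scaled values minus those log2 values ranged from -0.02 to 0.16. Whether a kit was stranded is not given per library in the sources used here.

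Counts were tested in R 4.3.3 with edgeR 4.0.16 (TMM factors, filterByExpr by group, glmQLFit and glmQLFTest), fitted on all genes of the libraries compared, with Benjamini-Hochberg adjustment and a threshold of 0.05. The edgeR fit was also run on simulated counts for some of the comparisons, drawn with the same dispersion for every gene and no line effect. That setting lacks the uneven spread and the paired lines of these data, and its outcome is not given here. CPM are TMM-scaled, and RPKM divide by the union of annotated exons (GENCODE vM21, in which all 9 genes had the coordinates of the table). The replicate is the line, with 3 per genotype, so p-values measure the spread between lines. Intervals are unadjusted 95% intervals. Days of one line are paired, and the main fits of day steps and interactions did not use this pairing. Deviations from group means correlated at a median of 0.13 between days of the same line (26 of 36 pairs over 0.1) and -0.08 between different lines (7 of 72 pairs over 0.1). The 2 values are not independent, because deviations within a group cancel out and a positive value for the same line forces negative ones. Line as a block, DESeq2 1.42.0, other scalings and filters, 1 fit of all libraries and leaving out lines were alternatives. The 9 genes, the lists and the rule for named genes (all 9, the 3 genes most like each by r, and up to 2 called genes with the largest change in each direction from each list) were chosen with earlier results of these data known.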

Additional observations from a re-analysis of the deposited data

Results flagged for a closer look

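Dppa3 between day 2 and day 2.5 is the 1 result in which every wt line moved one way and every het line the other. The mean log2 change was 0.063 in wt and -0.169 in het lines. In edgeR the log2 fold change of Dppa3, interaction of genotype with day 2.5 against day 2, was -0.25 ± 0.27 (adjusted p = 0.967), and -0.24 ± 0.27 (adjusted p = 0.969) with line as a block. No group held more than 3 lines, so single libraries were not screened for outlying values.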

How the results depend on the processing

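Over 1557 values of the 9 genes under an alternative, 1505 kept their side of the threshold, 40 lost a call (27 of them when a line was left out) and 12 gained one. Those 1505 include 1041 that passed in neither fit, of which 70 had another sign, and 0 values that passed in either fit reversed. In counts of the 9 genes called, het against wt on day 0 went from 0 to 1 without the filter on low counts and to between 0 and 1 when a line was left out. The wt step from day 2 to day 2.5 went from 5 to between 2 and 4 when a line was left out and to 3 without its smallest library, a choice made after the totals were seen. The wt step from day 2.5 to day 3 went from 4 to between 0 and 4, and the same het step from 5 to between 1 and 5 and to 3 with DESeq2. Without the filter on low counts the interaction count was 1 for day 2 against day 0 and 2 for day 3 against day 0, in place of 0. The cause was not tested.

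With line number as a replicate block the counts were 9 by day 2, 5 at day 2.5, 5 at day 3 and 9 overall in wt lines, and 9, 6, 5 and 9 in het lines, and beside the calls given in the report the block changed no other call of the 9 genes. Between genotypes, where a number links no lines, the block gave 0 of 9 on each day, and for the 4 interactions, added later, 0 of 9. Counts over all genes moved by over 1.5 times for het against wt on day 0 (0; 369 unfiltered, 82 DESeq2, 25 block, 1 in 1 fit of all libraries, 0 to 68 with a line left out), day 2 (85; 384, 233 and, in 1 fit of all libraries, 23; 0 to 211), day 2.5 (0; 87, 3 and 1 fit 1; 0 to 3) and day 3 (1; 274, 116, block 100, 1 fit 15; 0 to 93). They also did for the wt steps to day 2 (6869; 4152 without line 3), day 2.5 (4519; 2249 without line 2, 2545 without line 3) and day 3 (2923; 4687 block, 29 without line 2, 988 without line 3, 1574 without the smallest library), the het step to day 3 (4710; 2386 to 3032 with a line left out), and the interactions without the filter (0; 58, 33, 23 and 173). With the longest transcript in place of all exons the wt day 0 level of Pou5f1 was 969 RPKM and that of Lin28b 10.9.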
